A study of Mus musculus with 2 samples.

Results

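10 genes used to describe how macrophages are activated, Mgl2, Chil3, Arg1, Mrc1, Il1rn, Inhba, Il1b, Fcgr4, Spp1 and Trem2, were followed through single-cell libraries of mouse tumours. They were taken by symbol from the gene lists of both count matrices, and all 10 of the 10 symbols were found once among the 32285 genes listed. None of them takes part in the rules that define the cell classes used below.

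Macrophages exposed to interleukin-4 or interleukin-13 take up what is called alternative activation, with arginase 1, the chitinase-like protein Ym1 (Chil3) and the lectin receptors CD206 (Mrc1) and CD301b (Mgl2) as its usual marks in the mouse. Microbial products and interferon gamma drive inflammatory activation, which brings interleukin-1 beta (Il1b), activin A (Inhba) and the activating Fc receptor Fcgr4. In tumours such states mix, and macrophages that express osteopontin (Spp1), arginase 1 or the lipid receptor TREM2 are commonly described there.

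The libraries held cells from tumour tissue of C57BL/6 mice 8 to 12 weeks old, prepared to profile regulatory T cells (Tregs, the Foxp3-dependent CD4 T cells that restrain immune responses). One library came from mice with the genotype JMJD1CTregcKO, in which Jmjd1c, a gene of the JmjC histone demethylase family, is deleted in Tregs (cKO), and 1 library from JMJD1CWT mice (WT). Digested tumours were enriched for lymphocytes, Tregs were selected with magnetic beads and then sorted by fluorescence, so the myeloid cells described here lie outside the intended sort, and in them Jmjd1c is not meant to be deleted. The tumour model, how many animals were pooled, and the Cre line are not stated in the labels.

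Each group is 1 library, so no test across animals exists. Intervals are 95% intervals that cover counting error only, and no difference between the libraries has a replicate check. In cKO 4105 barcodes carried 37666195 UMIs (unique molecular identifiers, which count captured transcripts), against 3905 barcodes with 49063944 UMIs in WT, and 4026 cKO and 3842 WT cells passed a minimum of 500 genes and a limit of 10% mitochondrial UMIs. The libraries had 2 barcodes in common. Xist, the RNA of the inactive X chromosome, was found in 0.273% of cKO and 97.1% of WT cells and Y-linked transcripts in 74.6% of cKO and 0% of WT cells, so that sex and genotype cannot be told apart. Over all kept cells Jmjd1c stood at 71.9 CPM (UMIs of a gene scaled to a fixed total of UMIs) in cKO and 87.5 CPM in WT. The deleted exons are not given, and a 3' tag may lie outside them, so this checks neither the deletion nor the labels.

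Cells with at least 10 UMIs of C1qa, C1qb and C1qc together, the genes of the complement component made by tissue macrophages, were called C1q macrophages. There were 114 in cKO (2.83% of kept cells, 2.34 to 3.39) and 37 in WT (0.963%, 0.679 to 1.33). All 8 macrophage markers reached 10 CPM in the cKO cells and 7 of 8 in the WT cells, with summed levels of 12416 CPM in cKO and 15591 CPM in WT. These markers include C1qa, C1qb and C1qc, whose level follows from the rule. They made up 7536 CPM of the sum in cKO and 8263 CPM in WT. C1q-low myeloid cells, with at least 10 UMIs of the lysozyme gene Lyz2 and a C1q sum of at most 3, numbered 194 in cKO (4.82%) and 65 in WT (1.69%). Their 5 monocyte markers other than Chil3, such as Ly6c2 and Ccr2, were all above 10 CPM and summed to 4685 CPM in cKO and 4203 CPM in WT, against 1722 and 1479 CPM in C1q macrophages. In Tregs 4 of these 5 reached 10 CPM, with sums of 998 and 796 CPM. The C1q-low cells also had 4 of 4 markers of type 2 conventional dendritic cells at 10 CPM in both libraries. For type 1 conventional dendritic cells 2 of 4 did in cKO and 4 of 4 in WT. For plasmacytoid dendritic cells 2 of 3 did in cKO and 3 of 3 in WT, with Siglech at 0 CPM in cKO and 28.4 CPM in WT. Markers of neutrophils summed to 139 CPM at most in C1q macrophages and C1q-low cells, and Retnlg was at 0 in both classes of both libraries. In C1q-low cells 3 of 6 of these markers reached 10 CPM in cKO and 2 of 6 in WT. S100a9 stood there at 54.8 CPM in cKO and 1.62 CPM in WT, and S100a8 at 30.0 and 30.8 CPM. Tregs, the background class, had at least 6 UMIs of Foxp3, Il2ra, Ikzf2 and Ctla4 and at most 2 of Lyz2 and C1qa, and numbered 3120 in cKO and 3525 in WT. In the C1q macrophages 7 cKO and 2 WT cells lay just inside the C1q limit, and 18 cKO and 2 WT cells just outside it.

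T cell RNA was present in many myeloid droplets, and more of the WT droplets, which were deeper, reached a fixed number of its UMIs. At least 3 UMIs of Cd3d, Cd3e, Cd3g, Trac and Trbc2 were found in 25.4% of cKO C1q macrophages (29 of 114, 17.7 to 34.4) and 67.6% of WT C1q macrophages (25 of 37, 50.2 to 82.0). In C1q-low myeloid cells the shares were 30.4% in cKO (59 of 194) and 47.7% in WT (31 of 65). Scaled to all UMIs, these genes together stood at 479 CPM in cKO and 800 CPM in WT C1q macrophages. In C1q-low cells they stood close together, at 1024 CPM in cKO and 1096 CPM in WT. Scrublet, a doublet caller, marked 0 of 4026 cKO and 1 of 3842 WT cells and so gave no usable call, and doublets were not removed. Values without these droplets are given beside the results below, and their part in the results was not tested. Median depth was 17446.5 UMIs per C1q macrophage in cKO and 26369 in WT, 12425 and 16971 per C1q-low cell, and 6716 and 8973 per Treg.

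The third class, cells with at least 3 UMIs of Fscn1, the gene of the actin-bundling protein fascin, is usually read as mature dendritic cells. It held 25 cells in cKO and 60 in WT, and these did not form 1 cell type. In each library 7 of them carried 10 or more UMIs of Col1a1, Col1a2, Col3a1 and Dcn, the collagen and decorin genes of fibroblasts, and in these cells Ccr7, the chemokine receptor of mature dendritic cells, had 1 UMI in cKO and 1 UMI in WT. The other 18 cKO and 53 WT cells had Ccr7 at 3363 and 2150 CPM and Ccl22, a chemokine of mature dendritic cells, at 644 and 1011 CPM. Of the Fscn1 cells 10 in cKO and 39 in WT also met the Treg rule. They are therefore called Fscn1 cells here, and their values are given by that split.

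Stretches of 250 bases before the annotated start are shown for genes on which the comparisons below turn: Il1rn and Inhba, which were higher in cKO C1q macrophages, and Chil3, which was lower, beside its neighbour and near copy Chil4, of which no UMI was found in any class. Capitals mark matches to AP-1 (TGANTCA) or C/EBP (TTGCNNAA), searched on both strands. The sequences are from RefSeq (GRCm38.p6, the assembly of mm10), 5′ to 3′ on the strand of the gene. For Il1rn the table has 3 start sites and the first is shown; Arg1 has no entry.
Il1rn, chr2:24336610-24336859, plus strand: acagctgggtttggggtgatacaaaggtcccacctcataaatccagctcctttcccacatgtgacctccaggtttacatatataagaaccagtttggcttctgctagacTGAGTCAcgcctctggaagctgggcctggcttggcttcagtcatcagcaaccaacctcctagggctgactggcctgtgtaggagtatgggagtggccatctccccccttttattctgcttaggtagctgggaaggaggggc
Inhba, chr13:16011601-16011850, plus strand: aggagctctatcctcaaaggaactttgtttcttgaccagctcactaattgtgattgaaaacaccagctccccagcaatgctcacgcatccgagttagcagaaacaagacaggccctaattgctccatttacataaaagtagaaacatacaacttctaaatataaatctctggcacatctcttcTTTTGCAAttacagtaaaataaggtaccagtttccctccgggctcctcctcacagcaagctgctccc
Chil3, chr3:106167565-106167814, minus strand: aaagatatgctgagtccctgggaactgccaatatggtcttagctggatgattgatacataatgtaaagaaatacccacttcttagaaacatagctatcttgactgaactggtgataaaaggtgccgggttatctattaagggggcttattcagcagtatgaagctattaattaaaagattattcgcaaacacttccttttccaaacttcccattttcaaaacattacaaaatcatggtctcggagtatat
Chil4, chr3:106219480-106219729, minus strand: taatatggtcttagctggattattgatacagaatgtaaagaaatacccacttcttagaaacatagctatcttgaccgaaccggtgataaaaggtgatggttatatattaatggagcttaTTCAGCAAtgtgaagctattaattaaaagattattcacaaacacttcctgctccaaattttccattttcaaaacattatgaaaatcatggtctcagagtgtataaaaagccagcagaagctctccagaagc

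The Il1rn stretch held 1 AP-1 match and the Inhba stretch 1 C/EBP match, against 6.75% and 9.56% of all 32851 promoters of this length with at least 1. The AP-1 match was only at the Il1rn start shown: start sites 2 and 3 of Il1rn, not shown, had 0 AP-1 matches. Each of these held 1 match to the STAT6 motif, which was also searched. That motif was present in 5.85% of all promoters and in none of the 4 stretches shown. The letters of PU.1 (GAGGAA) and of the hypoxia element (ACGTG), present in 23.3% and 16.6% of all promoters, were in none of the 4 stretches on either strand. The Chil3 and Chil4 stretches were 72.0% identical over 279 alignment columns, and the C/EBP letters in Chil4 were not in Chil3. The GENCODE M21 starts of Chil4 (106219507) and Il1rn (24336853) lie inside the RefSeq stretches shown. A match is a description of letters and not a site in use.

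Against Tregs, the 10 genes stood higher in both myeloid classes. Mgl2 was not confined to them: the far larger Treg class held 125 Mgl2 UMIs in cKO and 544 in WT, against 84 and 97 in C1q macrophages. In C1q macrophages all 10 were at least 2-fold higher than in Tregs in both libraries, where 14% of all genes tested in cKO and 11.5% in WT were at least 2-fold higher. In C1q-low myeloid cells all 10 were again at least 2-fold higher (9 in each library without droplets with T cell UMIs), against 12.9% of genes in cKO and 12.2% in WT. Among Fscn1 cells 3 in cKO and 4 in WT were, against 13.5% and 10.2%. These shares count only genes averaging 20 CPM or more over the 2 classes compared. Inhba in WT C1q macrophages, Mrc1 in C1q-low cells, Mgl2 in cKO C1q-low cells and Il1rn in WT Fscn1 cells averaged less. Mrc1 showed the span: it stood at 144 and 78.4 CPM in cKO and WT C1q macrophages and at 0.109 and 0.136 CPM in Tregs, where it had 3 and 6 UMIs.

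**Figure D1:**
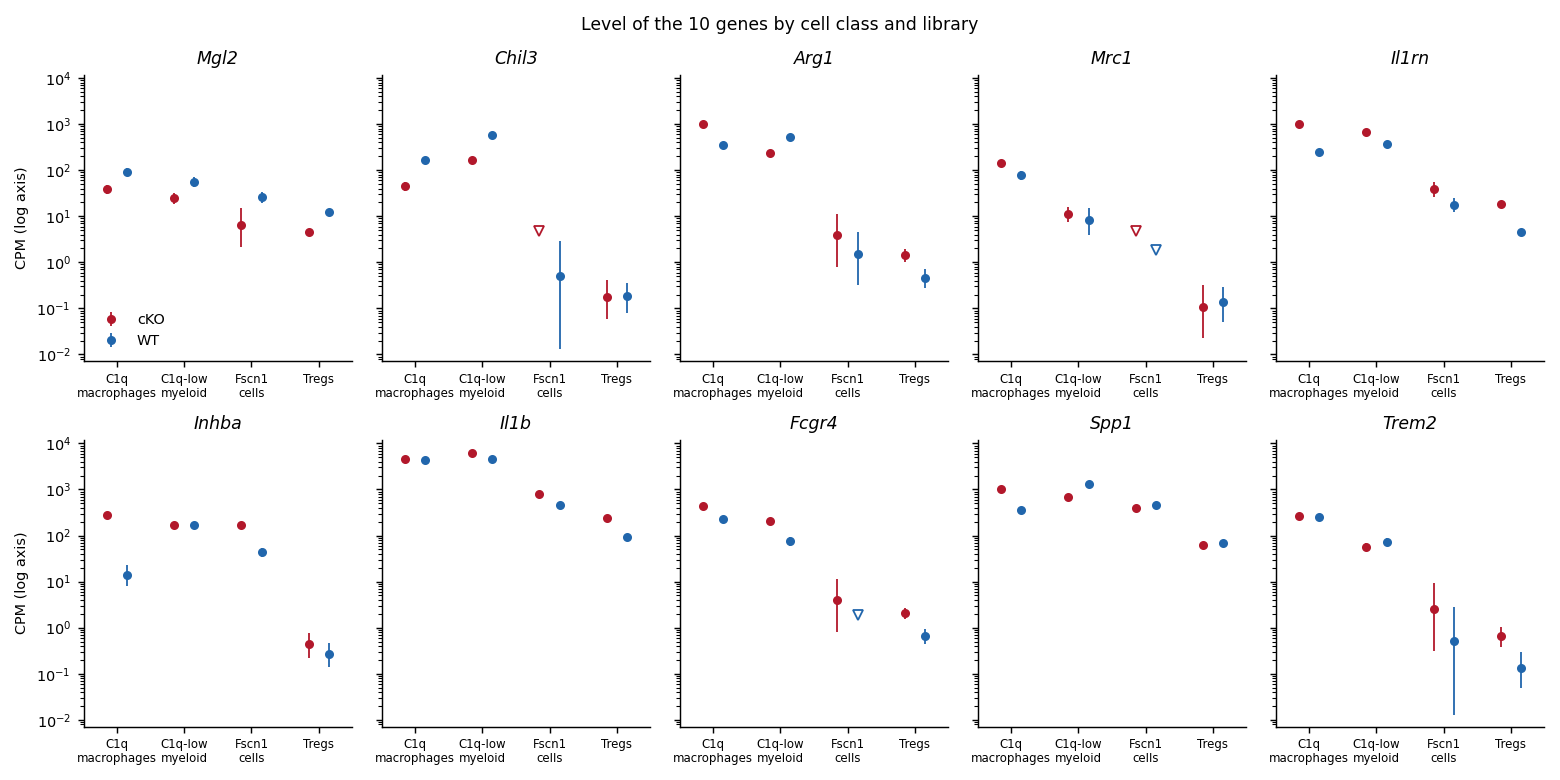
Level of each gene (CPM, log axis) in C1q macrophages, C1q-low myeloid cells, Fscn1 cells and Tregs, with cKO in red left of WT in blue; bars are exact Poisson 95% intervals, and an open triangle marks the upper bound where no UMI was found. Among the classes shown, all 10 genes lie highest in 1 of the 2 myeloid classes. Inhba is the gene for which the libraries lie farthest apart in C1q macrophages, at 272 CPM in cKO and 14.2 CPM in WT.

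Where the UMIs of each gene lay differed as much as the levels. C1q macrophages held 86.9% of all Mrc1 UMIs in cKO and 82.2% in WT, and 76.2% and 72.1% of those of Trem2. C1q-low myeloid cells held 78.5% of the Chil3 UMIs in cKO and 77.8% in WT. For Arg1, C1q macrophages held 72.1% in cKO and 33.3% in WT, and for Inhba 47.5% and 4.49%. These shares follow the number and depth of the cells in each class, of which cKO had more, as well as the level per cell. Spp1 and Mgl2 were the genes with the largest share of their UMIs in Tregs. Tregs held 27.4% of Spp1 UMIs in cKO and 46.5% in WT, and 33.4% and 59.8% of Mgl2 UMIs. By number, Il1b had more UMIs in Tregs than either, 6587 in cKO and 4006 in WT. The Mgl2 in Tregs came from few droplets, since 5 cells held 58.4% of it in cKO and 58.1% in WT.

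**Figure D2:**
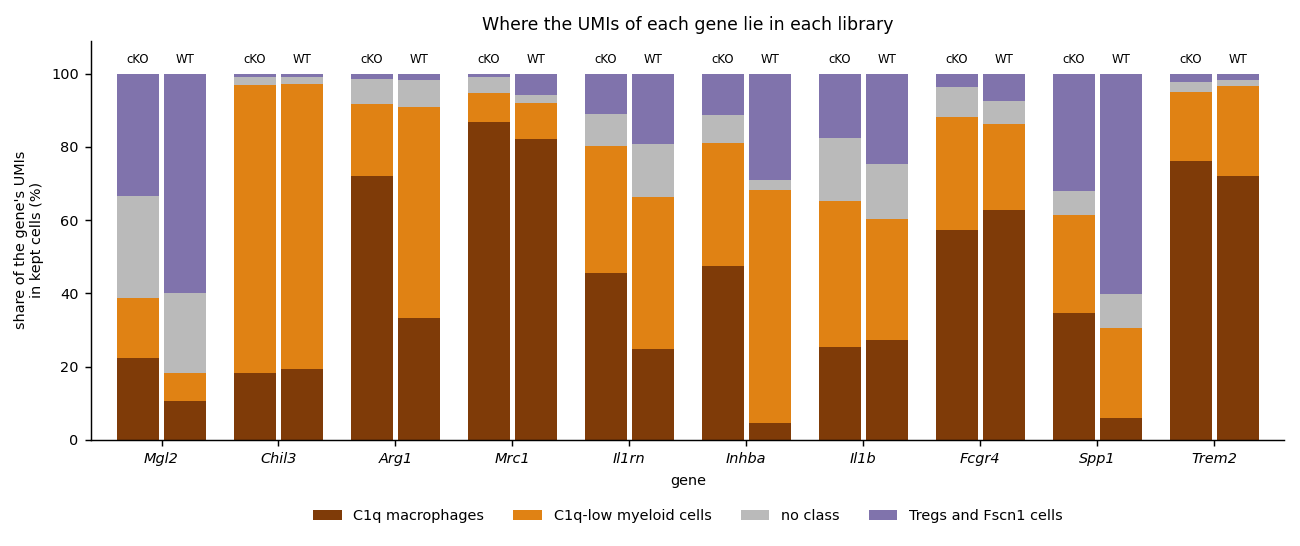
Share of the UMIs of each gene (%) in C1q macrophages, C1q-low myeloid cells, cells of no class, and Tregs and Fscn1 cells together, with cKO left of WT for each gene. Mrc1 and Trem2 lie mostly in C1q macrophages and Chil3 in C1q-low myeloid cells in both libraries, while Arg1 and Inhba have their largest share in C1q macrophages in cKO and in C1q-low myeloid cells in WT.

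Between the myeloid classes, the same 4 genes separated at least 2-fold in both libraries. Mrc1 was 12.8-fold (8.69 to 19.6) higher in C1q macrophages than in C1q-low cells in cKO and 9.66-fold (5.0 to 20.9) in WT. Trem2 was 4.65-fold (3.86 to 5.61) and 3.41-fold (2.67 to 4.39) higher, and Fcgr4 2.13-fold (1.92 to 2.38) and 3.11-fold (2.44 to 4.0), though without droplets with T cell UMIs its cKO log2 ratio was 0.90. Chil3 went the other way, 3.73-fold (2.99 to 4.7) lower in C1q macrophages in cKO and 3.45-fold (2.92 to 4.09) in WT. Counting all, 4 of the 10 were at least 2-fold higher and 1 lower in cKO, against 2.66% and 2.88% of genes, and 3 higher and 3 lower in WT, against 1.94% and 2%.

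For 4 other genes the order of the myeloid classes was opposite in the 2 libraries. Arg1 was 4.22-fold (3.86 to 4.63) higher in C1q macrophages than in C1q-low cells in cKO but 1.49-fold (1.31 to 1.69) lower in WT. Inhba was 1.62-fold (1.43 to 1.84) higher in cKO and 12.2-fold (7.23 to 22.2) lower in WT. Spp1 was 1.5-fold (1.41 to 1.60) higher in cKO and 3.57-fold (3.19 to 4.0) lower in WT, and Il1rn 1.52-fold (1.42 to 1.62) higher in cKO and 1.44-fold (1.23 to 1.68) lower in WT. The WT values rest on few cells: 5 cells held 92.0% of the Inhba UMIs of WT C1q-low cells and 69.7% of their Spp1. Without droplets that held T cell UMIs, the WT order of Arg1 turned to a log2 ratio of 0.28 in place of -0.57, that of Il1rn to 0.07 in place of -0.51 when UMIs per cell were used, and the cKO order of Inhba to -0.08 in place of 0.68 when cells were thinned before the classes were drawn. Over all cells Mgl2 and Il1b were within 2-fold between the classes in both libraries. Il1b remained so in each of 11 alternatives, whereas Mgl2 passed 2-fold in 5 of 11 in cKO (log2 0.35 to 3.12) and in 3 of 11 in WT (-0.59 to 1.57), with its sign turned in WT when cells were thinned before the classes were drawn.

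The comparison of cKO with WT sets macrophages from tumours of mice with Jmjd1c-deleted Tregs against those from WT mice, and the labels state no aim for these cells. In C1q macrophages 4 of the 10 genes were at least 2-fold higher in cKO, Inhba, Il1rn, Arg1 and Spp1, where 1.96% of 5148 genes were. Chil3 and Mgl2 were at least 2-fold lower, where 1.61% of genes were, and Fcgr4, Mrc1, Trem2 and Il1b stayed within 2-fold. The median log2 ratio, log2((CPM cKO + 5)/(CPM WT + 5)), was 0.87 over the 10 genes and 0.01 over all genes. Without droplets holding T cell UMIs, which left 85 cKO and 12 WT cells, 2 genes were higher in place of 4: Arg1 (0.96) and Spp1 (0.99) fell short of 2-fold. Over all cells, the C1q genes that define the class summed to 7536 CPM in cKO and 8263 CPM in WT. Without droplets holding T cell UMIs they lay further apart. C1qa then stood at 3145 CPM in cKO and 5340 CPM in WT, C1qb at 3535 and 5580 CPM, and C1qc at 2271 and 3731 CPM.

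In C1q-low myeloid cells the genes that stood out were others. Fcgr4 alone was at least 2-fold higher in cKO, where 1.28% of 5078 genes were, and Chil3, Arg1 and Mgl2 were at least 2-fold lower, where 1.34% were. The median log2 ratio was -0.17 over the 10 genes and -0.01 over all genes. Without droplets holding T cell UMIs Il1rn (1.03) passed 2-fold as well, Spp1 (-1.02) joined Chil3 (-2.41) among the lower genes, and Arg1 (-0.55) and Mgl2 (-0.86) fell short. Over all cells, Chil3 and Mgl2 were the genes lower by at least 2-fold in both classes, and Arg1 was higher in cKO in 1 class and lower in the other.

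**Figure D3:**
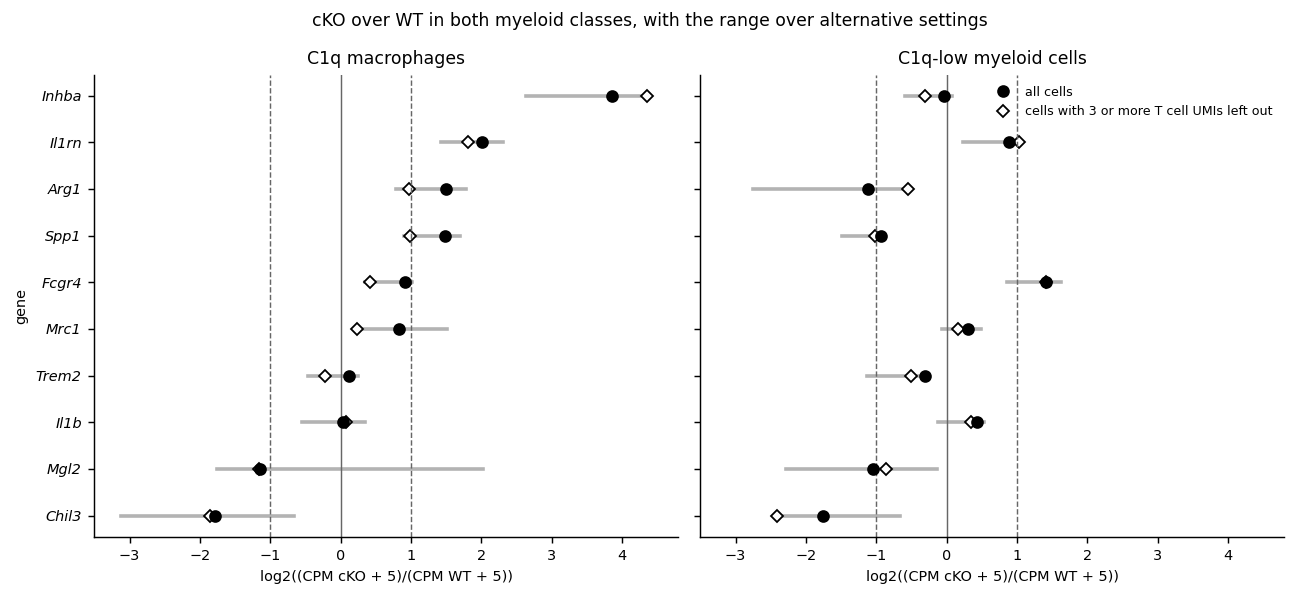
Log2((CPM cKO + 5)/(CPM WT + 5)) of each gene in C1q macrophages and C1q-low myeloid cells; filled points are all cells, open diamonds leave out cells with 3 or more T cell UMIs, grey lines span the 14 alternative settings, and dashed lines mark 2-fold. Inhba and Il1rn lie beyond 2-fold in C1q macrophages in every setting, Mgl2 crosses 0 in 1 setting, and Arg1 and Spp1 lie on opposite sides of 0 in the 2 classes.

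Il1b encodes interleukin-1 beta, a cytokine released by inflamed myeloid cells (ENSMUSG00000027398, chr2:129364570-129371139, minus strand, mm10). It stood at 4501 CPM (4412 to 4591) in cKO and 4396 CPM (4270 to 4524) in WT C1q macrophages, and at 6232 CPM (6134 to 6331) in cKO and 4599 CPM (4480 to 4720) in WT C1q-low cells. The cKO C1q-low level was thus the highest, and the other 3 did not differ beyond counting error from their neighbours. The cKO over WT ratio was 1.02 (0.989 to 1.06) in C1q macrophages and 1.36 (1.32 to 1.40) in C1q-low cells. A UMI was found in 94.7% of cKO and 94.6% of WT C1q macrophages, and in 97.4% and 93.8% of C1q-low cells, beside 11.5% and 5.76% of Tregs. After each cell was thinned to 4000 UMIs the shares were 87.4% and 86.1% in C1q macrophages, 95.6% and 90.8% in C1q-low cells, and 7.08% and 2.98% in Tregs.

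Il1rn encodes the interleukin-1 receptor antagonist, which occupies the receptor of interleukin-1 without signalling (ENSMUSG00000026981, chr2:24336853-24351494, plus strand). In C1q macrophages it stood at 1029 CPM (987 to 1072) in cKO and 253 CPM (224 to 285) in WT, a ratio of 4.06 (3.58 to 4.63). A cKO C1q macrophage held a median of 13 Il1rn UMIs and at most 105, a WT cell a median of 3 and at most 71. In C1q-low cells the levels were 677 CPM (645.5 to 710.4) in cKO and 364 CPM (331 to 399) in WT, a ratio of 1.86 (1.68 to 2.07). With both genes of the interleukin-1 pair read together, C1q macrophages had 22.9 Il1rn UMIs per 100 Il1b UMIs in cKO (21.8 to 23.9) and 5.76 in WT (5.07 to 6.52), and C1q-low cells 10.9 (10.3 to 11.4) and 7.91 (7.17 to 8.71). The antagonist was thus higher relative to the cytokine in cKO, and more so in C1q macrophages.

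Tregs showed a like Il1rn ratio at a far lower level, 18.8 CPM in cKO and 4.58 CPM in WT (ratio 4.10, 3.48 to 4.85), and Il1b stood in them at 239 and 90.9 CPM. Myeloid genes were also higher in the cKO Tregs: Lyz2 stood at 17.9 CPM in cKO and 3.25 CPM in WT, and the C1q genes together at 10.2 and 3.79 CPM. The Treg rule itself limits these levels, since it allows a cell at most 2 UMIs of Lyz2 and C1qa together. That limit met cells of unlike depth, with a median of 6716 UMIs in cKO and 8973 in WT. The Treg class also held cells rich in MHC class II genes, described under other observations. Whether the Il1rn and Il1b UMIs come from the Tregs themselves was not tested. Il1rn and Il1b were the 2 of the 10 genes at least 2-fold higher in cKO Tregs. Of 5152 genes averaging 20 CPM or more, a level that Il1rn did not reach there, 1.32% were. After each cell was thinned to 4000 UMIs, Il1rn was detected in 68.5% of cKO and 38.9% of WT C1q macrophages (82.5% and 73.0% unthinned) and in 4.04% and 1.49% of Tregs. The order of Il1rn levels ran from cKO C1q macrophages through cKO C1q-low and WT C1q-low to WT C1q macrophages with no overlap of intervals. Below them, cKO Tregs (18.8 CPM) and WT Fscn1 cells (17.8 CPM) did not differ beyond counting error.

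Inhba encodes the subunit of activin A, a TGF-beta family ligand made by activated macrophages (ENSMUSG00000041324, chr13:16011851-16031621, plus strand). In C1q macrophages it stood at 272 CPM (251 to 295) in cKO and 14.2 CPM (7.93 to 23.4) in WT, from 592 and 15 UMIs, a ratio of 19.2 (11.6 to 34.6) and a log2 ratio of 3.85. In cKO 47 of 114 cells held a UMI, up to 65 in 1 cell, and 5 cells held 47.1% of the total, whereas in WT 7 of 37 cells held at most 3 each. Leaving out droplets with T cell UMIs gave a log2 ratio of 4.35, and using only those gave 2.63. In C1q-low cells the summed levels lay close together: Inhba stood there at 168 CPM (152 to 185) in cKO and 173 CPM (150.4 to 198) in WT, from 50 of 194 and 12 of 65 cells. These levels and that of cKO Fscn1 cells, 166 CPM, did not differ beyond counting error. Counting error does not cover that most of the WT C1q-low UMIs lay in few cells. After thinning, 28.8% of cKO and 8.33% of WT C1q macrophages held a UMI, beside 0.144% and 0.0877% of Tregs. Among thinned C1q-low cells, 33 of 183 in cKO and 8 of 65 in WT did.

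Arg1 encodes arginase 1, which breaks down arginine to ornithine and urea (ENSMUSG00000019987, chr10:24915221-24927484, minus strand). It stood at 1019 CPM (977 to 1062) in cKO and 357 CPM (322 to 395) in WT C1q macrophages, a ratio of 2.85 (2.56 to 3.19), and at 241 CPM (223 to 261) in cKO and 531 CPM (491 to 573) in WT C1q-low cells, 2.20-fold lower (1.97 to 2.46). The intervals of these 4 levels did not overlap, and the cKO levels were the highest and the lowest. A UMI was found in 68.4% of cKO and 51.4% of WT C1q macrophages and in 21.1% and 41.5% of C1q-low cells. After thinning the shares were 58.6% and 38.9% in C1q macrophages and 15.3% and 36.9% in C1q-low cells, beside 0.542% and 0.263% of Tregs. The size of both differences moved with T cell UMIs: without those droplets the log2 ratio was 0.96 in C1q macrophages and -0.55 in C1q-low cells, and in those droplets alone 0.78 and -2.75, with the sign kept each time.

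Spp1 encodes osteopontin, a secreted phosphoprotein that binds integrins and CD44 (ENSMUSG00000029304, chr5:104435118-104441050, plus strand). C1q macrophages had 1022 CPM (979.8 to 1065) in cKO and 364 CPM (328 to 402) in WT, a ratio of 2.81 (2.52 to 3.14). C1q-low cells had 680.2 CPM (648 to 713) in cKO and 1297 CPM (1234 to 1362) in WT, 1.91-fold lower (1.78 to 2.04). The WT C1q-low level was the highest, and a single cell with 263 UMIs held 16.5% of it. Spp1 was also found in Tregs, which stood at 63.4 CPM in cKO and 68.6 CPM in WT, and after thinning 3.61% and 8.98% of them held a UMI, beside 53.2% and 30.6% of C1q macrophages. One Treg in cKO, with 620 UMIs, held 35.5% of the Spp1 UMIs of its class.

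**Figure D4:**
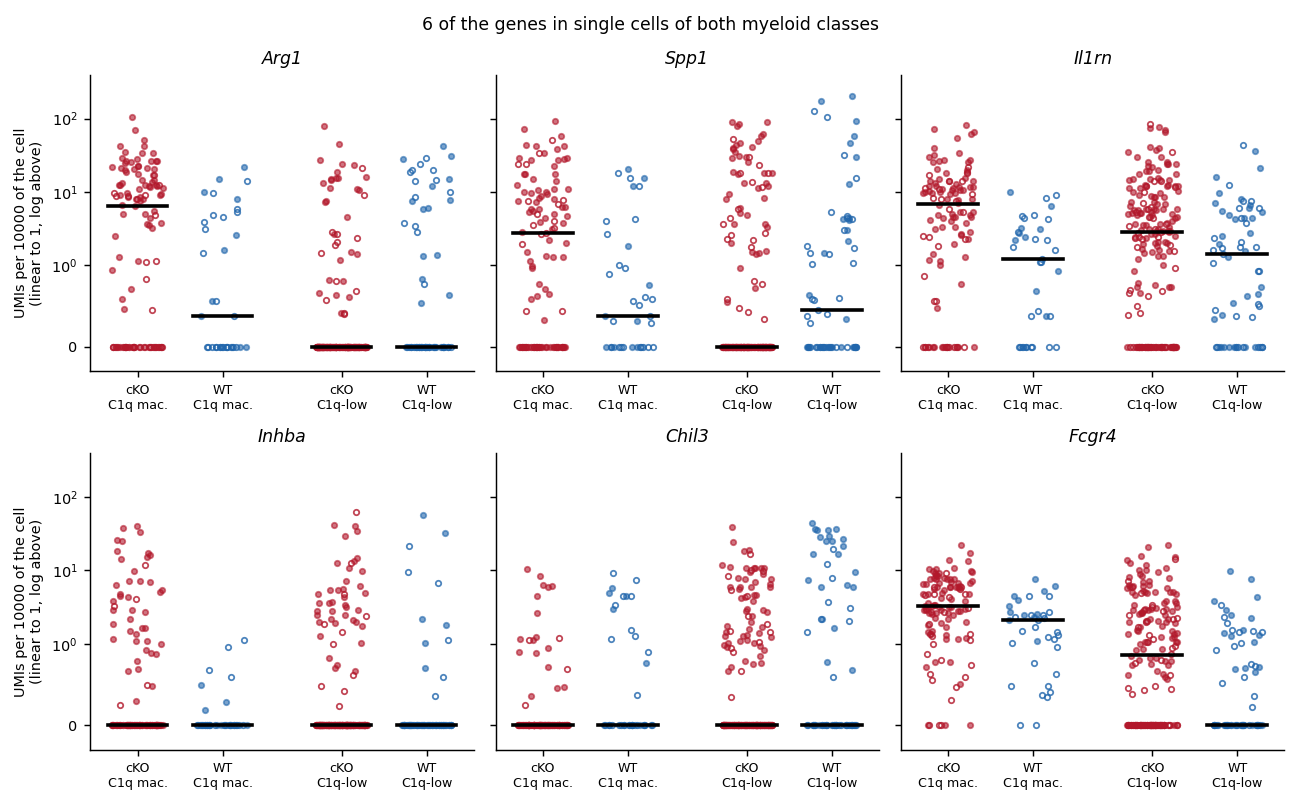
UMIs of 6 genes per 10000 UMIs of each cell (linear to 1 and logarithmic above) in C1q macrophages and C1q-low myeloid cells, cKO in red left of WT in blue; each point is a cell, open points held 3 or more T cell UMIs, and the black bar is the median. Inhba is 0 in most cells of every group and high in a subset of cKO C1q macrophages, with 47 of 114 cKO and 7 of 37 WT cells above 0.

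Trem2 encodes a receptor for lipids and apolipoproteins that signals through Tyrobp (ENSMUSG00000023992, chr17:48346401-48354147, plus strand). It stood at 268 CPM (246 to 290.4) in cKO and 247 CPM (218 to 278) in WT C1q macrophages, and 57.6 CPM (48.6 to 67.9) in cKO and 72.2 CPM (58.0 to 88.9) in WT C1q-low cells. Within each class the libraries did not differ beyond counting error, with ratios of 1.09 (0.937 to 1.26) and 0.798 (0.609 to 1.05). Thinned shares in C1q macrophages were 55.0% in cKO and 44.4% in WT, beside 0.181% and 0.0585% of Tregs.

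Fcgr4 encodes the mouse activating Fc gamma receptor that binds IgG2 antibodies (ENSMUSG00000059089, chr1:171018920-171029761, plus strand). It was higher in cKO in both classes: 443 CPM (415.5 to 472) in cKO and 232 CPM (204 to 263) in WT C1q macrophages, and 208 CPM (190.3 to 226) in cKO and 74.7 CPM (60.2 to 91.6) in WT C1q-low cells. The ratios were 1.91 (1.66 to 2.20) and 2.78 (2.23 to 3.51). Of the 4 levels, those of WT C1q macrophages and cKO C1q-low cells did not differ beyond counting error. A UMI was found in 94.7% of cKO and 94.6% of WT C1q macrophages and, after thinning, in 73.9% and 58.3%, beside 0.722% and 0.0877% of Tregs. Of its relatives, the log2 ratio in C1q macrophages was 0.33 for Fcgr1, 0.15 for the inhibitory receptor Fcgr2b and 0.17 for Fcgr3. In C1q-low cells Fcgr1 stood at 415 CPM in cKO and 293 CPM in WT (0.49), Fcgr2b at 251 and 399 CPM (-0.66, lower in cKO) and Fcgr3 at 386 and 359 CPM (0.10). Without droplets with T cell UMIs Fcgr4 stood at 0.41 in C1q macrophages and 1.42 in C1q-low cells. In the last 500 bases of their transcripts, Fcgr4 shared 0% of its 91-base windows with these 3 genes.

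Mrc1 encodes the mannose receptor CD206 (ENSMUSG00000026712, chr2:14229392-14332057, plus strand). It stood at 144 CPM (128 to 160.4) in cKO and 78.4 CPM (62.5 to 97.2) in WT C1q macrophages, a ratio of 1.83 (1.43 to 2.36), and was low in C1q-low cells, at 11.2 CPM in cKO and 8.12 CPM in WT from 28 and 10 UMIs. A UMI was found in 48 of 114 cKO and 14 of 37 WT C1q macrophages, and after thinning in 28.8% and 13.9%, beside 0.0361% and 0.0585% of Tregs; a cell without a UMI is not shown to lack the transcript. Without droplets with T cell UMIs the log2 ratio in C1q macrophages was 0.23 in place of 0.83.

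Mgl2 encodes the galactose-type lectin CD301b of macrophages and dendritic cells (ENSMUSG00000040950, chr11:70130329-70137550, plus strand). It was low in all classes: 38.6 CPM (30.8 to 47.8) in cKO and 91.6 CPM (74.3 to 112) in WT C1q macrophages, and 24.4 CPM (18.7 to 31.4) and 56.0 CPM (43.6 to 70.9) in cKO and WT C1q-low cells. The ratios were 2.37-fold lower (1.75 to 3.21) and 2.29-fold lower (1.60 to 3.29) in cKO. Few cells decided these values, since 19 of 114 cKO and 12 of 37 WT C1q macrophages held a UMI and 1 cell held 77.0% of the Mgl2 UMIs of cKO C1q-low cells. When every cell was thinned before the classes were drawn, the log2 ratio in C1q macrophages was 2.03 in place of -1.15, so its direction there depends on that setting. The close relative Clec10a, which shares 1.19% of the 91-base windows of the last 500 bases of Mgl2, stood at 14.3 CPM in cKO and 17.0 CPM in WT C1q macrophages.

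Chil3 encodes Ym1, a chitinase-like protein secreted by alternatively activated macrophages and by monocytes (ENSMUSG00000040809, chr3:106147554-106167564, minus strand). It was lower in cKO in both classes: 44.6 CPM (36.2 to 54.4) in cKO and 166 CPM (143 to 193) in WT C1q macrophages, and 167 CPM (151 to 183) in cKO and 573 CPM (532 to 617) in WT C1q-low cells. It was 3.73-fold lower (2.89 to 4.82) and 3.44-fold lower (3.04 to 3.89). The WT C1q macrophage and cKO C1q-low levels did not differ beyond counting error. The share of C1q macrophages with a UMI was 18.4% in cKO and 40.5% in WT, and after thinning 8.11% and 25%, beside 0.144% and 0.0877% of Tregs. Chil3 was lower in cKO under each of the 14 alternatives in both classes, and short of 2-fold in 1 of them in each class. Chil4, whose transcript shares 8.50% of the 91-base windows at the end of Chil3, had 0 UMIs in each of the 4 classes of both libraries, so reads of the shared windows cannot be told apart but no separate Chil4 signal was found.

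In Fscn1 cells the comparison of cKO with WT turned on which cells the class held. By the whole class Inhba was at least 2-fold higher in cKO, at 166 and 43.3 CPM, where 4.58% of 5591 genes were, and Mgl2 at least 2-fold lower, from 5 and 51 UMIs, where 5.49% were. Mgl2 averaged under the 20 CPM that the genes in these shares reached. Of the Inhba UMIs 99.2% in cKO and 98.8% in WT lay in the 7 collagen-bearing cells of each library, at 298 and 169 CPM, as did 99.3% and 98.8% of the Spp1 UMIs, at 701 and 1787 CPM. The cells without collagen had 1 Inhba UMI each in cKO and WT and Spp1 at 5.80 and 7.50 CPM. The interleukin-1 genes lay in the other cells: Il1b stood at 1815 CPM in the 18 cKO and 599 CPM in the 53 WT cells without collagen, and Il1rn at 84.1 and 23.9 CPM, against 3 and 4 Il1b UMIs in the collagen-bearing cells. Mrc1 had 0 UMIs in all Fscn1 cells, which allows a level of up to 3.89 CPM in cKO and 1.53 CPM in WT, and Arg1 had 3 UMIs in each library. At least 3 T cell UMIs were found in 64.0% of cKO and 78.3% of WT Fscn1 cells. The 9 cKO and 13 WT cells without them turned the direction of Il1b, to 426 CPM in cKO and 636 CPM in WT, a log2 ratio of -0.57 in place of 0.85. In these cells Inhba stood at 2.39, Il1rn at 1.15 and Spp1 at -0.75, and Mgl2 had 0 UMIs in cKO and 28 in WT, all in 1 cell.

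**Figure D5:**
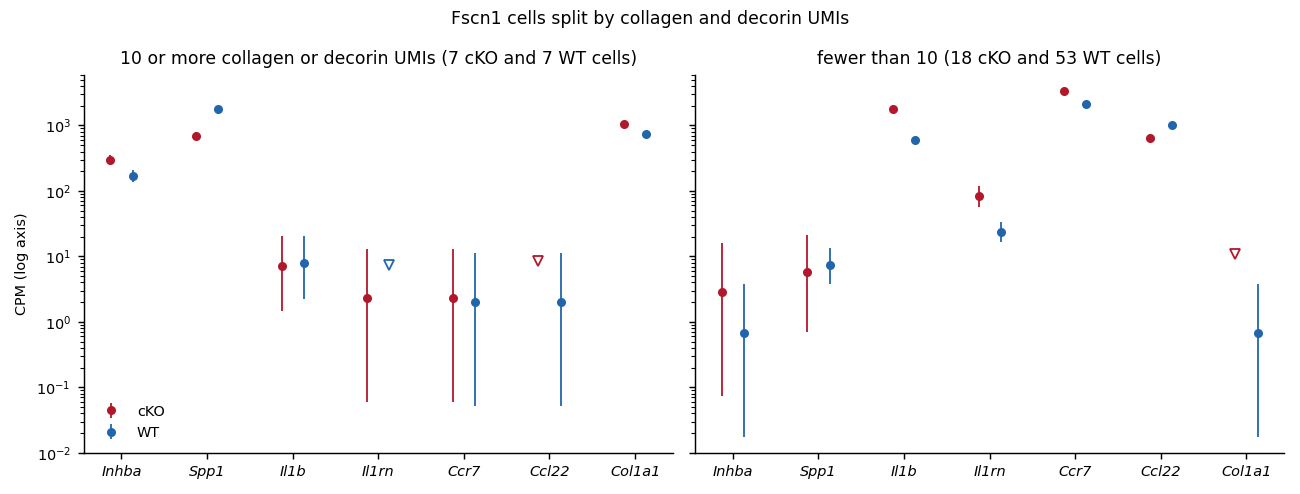
Levels (CPM, log axis) of 4 of the genes and of Ccr7, Ccl22 and Col1a1 in Fscn1 cells with 10 or more collagen and decorin UMIs (7 cKO and 7 WT cells) and with fewer (18 and 53 cells); cKO in red left of WT in blue, bars are exact Poisson 95% intervals, and an open triangle marks the upper bound where no UMI was found. Inhba and Spp1 lie in the collagen-bearing cells, and Il1b and Il1rn in the cells with Ccr7.

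The pathways around these genes were described by lists, with a gene counted where it averaged at least 20 CPM over the libraries in that class. Since a gene can reach that average through the library where it is high, as 5 of the 13 genes past 2-fold in C1q macrophages and 4 of 12 in C1q-low cells did, the counts below describe these libraries and support no direction. Beside them, 1.96% of all genes tested were at least 2-fold higher and 1.61% lower in cKO C1q macrophages, and 1.28% and 1.34% in C1q-low cells. Without cells with T cell UMIs 15 and 14 of the listed genes were past 2-fold, of which 8 and 6 were among the 13 and 12 with the same sign.

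Of 8 measured genes of alternative activation in C1q macrophages, 1 was at least 2-fold higher in cKO (Arg1) and 2 lower (Mgl2 and Chil3), and without cells with T cell UMIs 0 and 2. In C1q-low cells, of 10 measured genes, 1 was higher, the lectin receptor Cd209a at 80.1 CPM in cKO and 17.9 CPM in WT, and 4 lower, among them the chemokine Ccl17 at 12.0 CPM in cKO and 114 CPM in WT; these counts became 3 and 1, and Ccl17 turned to a log2 ratio of 0.76 in place of -2.80. Of inflammatory genes 3 of 14 were higher and 0 lower in C1q macrophages, and 2 and 0 without cells with T cell UMIs. The 3 over all cells were Inhba, Nos2, the inducible nitric oxide synthase, at 86.0 CPM in cKO and 3.78 CPM in WT, and the T cell chemokine Cxcl9 at 1614 and 675 CPM, which fell short (0.94) without those cells. In C1q-low cells 3 of 15 were higher, Cxcl9 (605 and 159 CPM), Ccl5 and Fcgr4, and 1 lower, Il1a, at 20.4 CPM in cKO and 75.5 CPM in WT. Without cells with T cell UMIs Ccl5 (0.14) and Il1a (-0.59) were within 2-fold, and the receptor gene Cd40 (1.09) was past it.

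Arginine and polyamine genes had 4 of 11 higher in cKO C1q macrophages and 0 lower: Arg1, Nos2, the mitochondrial arginase Arg2 (34.0 CPM in cKO and 6.61 CPM in WT) and the arginine transporter Slc7a2 (35.9 and 15.1 CPM), of which the last 3 were under 20 CPM in WT. Without cells with T cell UMIs 4 were again higher: Nos2 (2.78), Arg2 (2.05), Ass1 (1.31) and Srm (1.06), while Slc7a2 (0.35) and Arg1 were not. In C1q-low cells 0 of 9 were higher and 1 lower, Arg1. The interleukin-1 system had 1 of 10 higher in C1q macrophages, Il1rn, and in C1q-low cells 2 of 11 higher, the cytokine Il18 (53.2 and 21.9 CPM) and its binding protein Il18bp (54.4 and 16.2 CPM), and 1 lower, Il1a. Without cells with T cell UMIs Il18bp (1.33) joined Il1rn in C1q macrophages. In C1q-low cells Il18 (0.96) and Il1a (-0.59) then fell short, Il18bp (1.90) did not, and Il1rn (1.03) passed. Of 3 measured activin pathway genes, Inhba was higher in C1q macrophages and none passed 2-fold in C1q-low cells, while the inhibitory Smad7 had log2 ratios of -0.99 and -0.97, and 0.25 and -1.04 without cells with T cell UMIs. The activin receptors and the antagonist follistatin did not reach the measured level in either class.

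Lipid-associated genes had 2 of 12 higher in C1q macrophages, Spp1 and the scavenger receptor Cd36 (36.8 CPM in cKO and 7.56 CPM in WT), and 1 of 12 in C1q-low cells, Cd36 (36.8 and 15.4 CPM), with none lower. The apolipoprotein gene Apoe stood at 3505 CPM in cKO and 6025 CPM in WT C1q macrophages, within 2-fold, and past it (-1.23) without cells with T cell UMIs. The TREM2 receptor complex had 0 of 9 past 2-fold in either class, with and without those cells, and log2 ratios of 0.29 and 0.41 for Tyrobp. Fc gamma receptors and their signalling genes had 0 of 7 past 2-fold in C1q macrophages and 1 in C1q-low cells, Fcgr4, with the same counts without those cells. Among Spp1 and its receptors, of 7 measured genes, 1 was higher, Spp1, and 1 lower in C1q macrophages, the integrin gene Itga4, at 40.5 CPM in cKO and 96.4 CPM in WT, which turned to a log2 ratio of 0.54 in place of -1.16 without cells with T cell UMIs. None of the 7 passed 2-fold in C1q-low cells. C-type lectins and scavenger receptors had 0 of 7 higher and 1 lower in C1q macrophages, Mgl2, and 1 of 8 higher, Cd209a, and 1 lower, Mgl2, in C1q-low cells, and without cells with T cell UMIs 1 and 1, and 3 and 0. Of the chitinase-like genes 1 of 5, Chil3, was measured. Hypoxia and glycolysis genes had 1 of 8 higher in C1q macrophages, the heme oxygenase gene Hmox1, at 163 CPM in cKO and 25.5 CPM in WT, and 0 of 8 in C1q-low cells; without cells with T cell UMIs 3 were higher in C1q macrophages, Hmox1 (1.73) among them, and 1 was lower in C1q-low cells.

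Over C1q macrophages and C1q-low cells together, 308 in cKO and 102 in WT, Pearson's r of log-scaled counts was computed between each gene and 7406 genes found in at least 10% of those cells, and genes were ranked by the lower value of the 2 libraries. These are descriptions across cells that share a library and differ in depth and class. Arg1 was most like Spp1 (r 0.54 in cKO and 0.56 in WT), followed by the fibronectin gene Fn1 (0.53 and 0.56) and Mif, and Spp1 was most like Arg1. In cKO alone Arg1 had a higher r with Trem2, 0.60, where WT had 0.28. Inhba was most like Il1rn (0.47 and 0.47), and Il1rn most like Inhba. Trem2 was most like Ms4a7 (0.65 and 0.60), Mrc1 like C1qa (0.54 and 0.52), which defines the classes, Fcgr4 like the cathepsin gene Ctss (0.49 and 0.54), Il1b like Cd14 (0.45 and 0.41) and Chil3 like the monocyte gene Vcan (0.37 and 0.50). Mgl2, found in 8.44% of the cKO cells, was not ranked.

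Counts of cells at equal depth were made for each pair of the 10 genes. Of 111 cKO C1q macrophages thinned to 4000 UMIs, 45 held both Arg1 and Spp1 (40.5%, where the product of the single shares is 31.1%), and of 36 WT cells 7 did (19.4%, product 11.9%). In cKO C1q-low cells both were found in 18 of 183 (9.84%, product 4.18%) and in WT in 14 of 65 (21.5%, product 12.5%). Arg1 and Trem2 were found together in 48 of 111 cKO C1q macrophages (43.2%, product 32.2%) and in 13 of 183 cKO C1q-low cells (7.10%, product 2.51%). In WT the pair was in 7 of 36 C1q macrophages (19.4%, product 17.3%) and 11 of 65 C1q-low cells (16.9%, product 10.2%). Inhba and Il1rn were found together in 24.3% of cKO and 5.56% of WT C1q macrophages (products 19.7% and 3.24%), and in 15.8% of cKO and 9.23% of WT C1q-low cells (products 10.8% and 5.30%). Other genes found in most cells were in the Inhba cells too: of the 32 cKO C1q macrophages with Inhba, 31 held Il1b, 28 Fcgr4 and 27 Il1rn. Chil3 and Mrc1, both used as marks of alternative activation, were found together in 0 of 111 cKO C1q macrophages, where the product of single shares is 2.34%. In WT they were found together in 2 of 36 cells (5.56%, product 3.47%), above the product. Arg1 and Mrc1 were found together in 22.5% of cKO and 8.33% of WT C1q macrophages (products 16.9% and 5.40%).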

How the data were processed

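Both libraries were deposited as UMI counts for each gene and barcode, which the authors made with Cell Ranger 5.0.1 on build mm10, per the submitters' processing notes; the library was a 10x Genomics 3' library, per the labels. Not given in the sources used here are the annotation release and the handling of intron reads. Groups were taken from the genotype label, 1 library each. The 10 genes, the cell classes and the gene lists were chosen with earlier results of these data known.

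Cells with at least 500 genes and under 10% mitochondrial UMIs were kept, and a cell could meet the rule of more than 1 class. UMIs of a class were summed per library and given as CPM with an exact Poisson interval. Ratios were given without a pseudocount and with an exact conditional binomial interval, and shares with a Clopper-Pearson interval, each at 95% and for counting error only. Log2 ratios use a pseudocount of 5 CPM, which understates differences of low genes. Where a class had 0 UMIs, its limit is 3 counts over that class and library. A gene passed 2-fold at an absolute log2 ratio of 1, and the background is the share past it of all genes that averaged 20 CPM or more. The counts of the 10 genes take no such minimum. For shares of cells at equal depth each cell was thinned to 4000 UMIs, leaving out 3 cKO and 1 WT C1q macrophages, 11 cKO and 0 WT C1q-low cells, and 350 cKO and 105 WT Tregs.

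The rule for named genes was all 10 genes in every class, up to 4 measured genes of each list with the largest absolute log2 ratio in either myeloid class, the close paralogs, and the 3 genes most like each gene; not all of these are printed. Ccl5, Cd40, Srm, Ass1 and the genes that split the Fscn1 cells were named after their values were seen. Clec7a and Ero1a were not matched by symbol. The calculation was tested on simulated counts. Gene coordinates are from GENCODE M21 on mm10.

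Alternatives were a pseudocount of 1 CPM, all barcodes, a minimum of 1000 genes, stricter class limits, thinning before the classes were drawn, thinning to 8000 UMIs, leaving out cells of more than 1 class, cells with T cell UMIs, the highest 5% of Scrublet scores or the 1% of cells with the most UMIs of a gene, a mean over cells, a total without mitochondrial and ribosomal protein genes, and a background of genes averaging 5 CPM. Tools were Python 3.11.15, numpy 2.4.6, scipy 1.17.1, pandas 2.3.3, scanpy 1.11.5 with its Scrublet, and matplotlib 3.10.9.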

Additional observations from a re-analysis of the deposited data

Results flagged for a closer look

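For 2 genes the cKO over WT log2 ratio had opposite signs in 2 classes. Arg1 stood at 1.5 in C1q macrophages and -1.12 in C1q-low myeloid cells. Spp1 stood at 1.48 in C1q macrophages, -0.93 in C1q-low myeloid cells and -0.23 in Fscn1 cells. With 1 library per group these differences between classes were not tested.

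For 4 genes the log2 ratio of C1q macrophages over C1q-low myeloid cells had opposite signs in the libraries, and this was not tested either. It was 2.06 in cKO and -0.57 in WT for Arg1, 0.60 in cKO and -0.51 in WT for Il1rn, 0.68 in cKO and -3.21 in WT for Inhba, and 0.58 in cKO and -1.82 in WT for Spp1.

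Cells that met no class rule, 585 in cKO and 194 in WT, enter none of the comparisons, and several of the 10 genes were higher in them than in Tregs of the same library. Il1b stood there at 1399.5 CPM in cKO and 1412 CPM in WT, against 239 and 90.9 CPM in Tregs. Il1rn stood at 92.7 and 86.4 CPM in cKO and WT (18.8 and 4.58 CPM in Tregs), and Spp1 at 89.7 and 335 CPM (63.4 and 68.6 CPM in Tregs). Mgl2 stood at 22.0 CPM in cKO and 109.5 CPM in WT, against 4.53 and 12.3 CPM in Tregs. Arg1 was at 44.3 and 45.7 CPM in cKO and WT, Fcgr4 at 30.0 and 13.8 CPM, Inhba at 20.3 and 4.95 CPM, Trem2 at 4.22 and 3.30 CPM and Chil3 at 2.53 and 9.36 CPM. Mrc1 stood at 3.38 CPM in cKO cells of no class and 0.109 CPM in cKO Tregs.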

How the results depend on the processing

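No paired analysis was possible because each group has 1 library. In C1q macrophages, Inhba (log2 2.63 to 4.35) and Il1rn (1.43 to 2.31) passed 2-fold in each of the 14 alternatives, Chil3 in 13 (-3.12 to -0.66), Spp1 in 12 (0.90 to 1.69) and Arg1 in 11 (0.78 to 1.78). Mgl2 there reversed, to 2.03, when cells were thinned before the classes were drawn. In C1q-low cells Chil3 passed in 13 (-2.41 to -0.66), Fcgr4 (0.86 to 1.62) and Arg1 (-2.75 to -0.55) in 12, and Mgl2 in 10 (-2.28 to -0.14). The cause of these moves was not tested.

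Of the counts of genes past 2-fold in cKO over WT, those in C1q macrophages (4 higher, 2 lower) became 2 higher without cells with T cell UMIs and 2 higher by UMIs per cell, and 0 lower with cells thinned first and 1 lower in cells with T cell UMIs alone. Those in C1q-low cells (1 higher, 3 lower) became 2 higher without cells with T cell UMIs or without the top cells, 0 higher by UMIs per cell and in cells with T cell UMIs alone, 5 lower with cells thinned first and 1 lower without the highest Scrublet scores. Those in Fscn1 cells (1 higher, 1 lower) became 4 higher with a pseudocount of 1 CPM and 4 without collagen-bearing cells. They became 2 higher with stricter limits, without cells with T cell UMIs, with a total without mitochondrial and ribosomal protein genes and by UMIs per cell. They became 3 higher without cells of more than 1 class and in cells with T cell UMIs alone, 5 with cells thinned first and 6 by a mean over cells. They became 0 lower without cells of more than 1 class and in cells with T cell UMIs alone. The share of all genes past 2-fold under each setting is not given beside these counts. The changes therefore describe the settings and are no result about these genes.

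In cKO, genes higher in C1q macrophages than in C1q-low cells were 8 by UMIs per cell in place of 4. Those higher in cKO Fscn1 cells than in Tregs, in place of 3, were 5 with a pseudocount of 1 CPM or against Tregs without Tyrobp and Fcer1g. They were 7 by a mean over cells and 8 by UMIs per cell. UMIs per cell are not scaled for depth. In cKO median depth was 17446.5 UMIs in C1q macrophages and 12425 in C1q-low cells. It was 18208 in Fscn1 cells and 6716 in Tregs. For these counts too, the share of all genes under each setting is not given. Il1b in Fscn1 cells, short of 2-fold, turned from 0.85 to -0.57 without cells with T cell UMIs. The settings by UMIs per cell, against Tregs without Tyrobp and Fcer1g, with T cell UMIs alone and without collagen-bearing cells, and the list counts without T cell UMIs, were chosen after seeing the data. Depth limits Mrc1 in C1q-low cells and Mgl2 in all classes, which rest on few cells, and the WT C1q macrophages number 37.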

Other observations

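A further set of cells held much of the Mgl2 and Il1b outside the classes described. Cells with 20 or more UMIs of MHC class II genes but few of Lyz2, C1q and Fscn1, a set defined after the data were seen, numbered 125 in cKO and 101 in WT, of which 48 in cKO and 53 in WT met the Treg rule. They expressed the antigen-presentation gene H2-Aa at 8746 CPM in cKO and 5932 CPM in WT, the dendritic cell receptor gene Flt3 at 29.9 and 46.2 CPM and the lectin gene Cd209a at 207 and 26.7 CPM. They held 54.3% of all Mgl2 UMIs in cKO and 73.6% in WT, at 97.8 CPM in cKO and 284 CPM in WT, levels above those of C1q macrophages in both libraries. Il1b stood in them at 5247 CPM in cKO and 2046 CPM in WT, 28.1% and 28.2% of all its UMIs, and Il1rn at 124 and 25.4 CPM. Chil3 had 0 UMIs in both libraries there, and Trem2 had 2 in cKO and 0 in WT. A UMI of Cd3e was found in 58.4% of these cells in cKO and 63.4% in WT, and the part of T cell RNA was not tested.

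With these cells set aside, the Tregs of both libraries had little Mgl2, at 0.452 CPM in cKO and 1.51 CPM in WT, while Spp1 remained at 65.3 CPM in cKO and 69.2 CPM in WT. A UMI of Spp1 was found in 178 of the cKO and 511 of the WT cells among them.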
